A study of Mus musculus with 5 samples.

Results

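The p53 target genes described here are 10 genes that the transcription factor p53 is known to activate after DNA damage: Cdkn1a, Ccng1, Bbc3, Trp53inp1, Mdm2, Bax, Btg2, Sesn1, Perp and Phlda3. They were taken by symbol from the array platform's gene table and kept where the feature had a value on at least 4 of the 5 arrays. That left 7 of the 10, among 10081 genes and unnamed features measured in this way, 9039 of them with a symbol. Bax and Sesn1 were not found under their symbols in that table, and Phlda3 had values on 3 arrays.

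The study measured lung RNA from the inbred mouse strain 129svJ after treatment with bleomycin, an antibiotic that breaks DNA strands and serves in mice to model lung injury and fibrosis. Each of the 5 arrays carried amplified RNA of 1 bleomycin-treated mouse in channel 1 and a pool of amplified lung RNA from control 129svJ mice in channel 2. The 5 arrays form 1 group of 5 mice, and the pool is 1 control sample with no spread of its own. Dose, route, time after treatment, age, sex, the number of pooled mice and the dyes were not found in the labels.

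p53 is held at a low level by the ubiquitin ligase Mdm2 and is released when kinases of the DNA damage response modify both proteins. It then binds paired copies of a short sequence element near its target genes. The targets include genes that stop the cell cycle, genes that trigger cell death at the mitochondrion, genes of metabolic and growth control, and Mdm2 itself, which closes a negative feedback loop. Bleomycin is known to activate p53 in the lung epithelium.

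All values below are log2 ratios of the 2 channels, after the median of each array was set to 0. The deposited values carry no log base and were read as log2, because the lowest, −5.74, would be too far from 0 for base 10. The sources do not settle which channel is the numerator, so a value is placed below or above 0 and is not called a rise or a fall in the treated mice. A gene passed the threshold when limma's moderated test of its mean against 0 gave a Benjamini-Hochberg adjusted p under 0.05 over all 10081. The arrays are of whole lung, so a change in the number of cells of a type and a change in RNA per cell cannot be told apart.

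The measured p53 targets divided into 2 sets with opposite signs. Ccng1, Cdkn1a, Bbc3 and Mdm2 lay below 0 in every mouse and Trp53inp1, Btg2 and Perp lay above 0 on every array with a value. All 7 passed the threshold, 4 below 0 and 3 above, where 49.6% of all tested genes passed (23.9% below 0 and 25.8% above). The measured arrays lay on 1 side of 0 for each of the 7 and for 57.3% of all tested genes. The median size of the 7 mean log2 ratios was 0.74, against 0.21 over all tested genes. A difference of at least 2-fold was reached by 3 of the 7, Ccng1, Cdkn1a and Trp53inp1, whereas 5.59% of all tested genes both passed and reached that size.

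**Figure D1:**
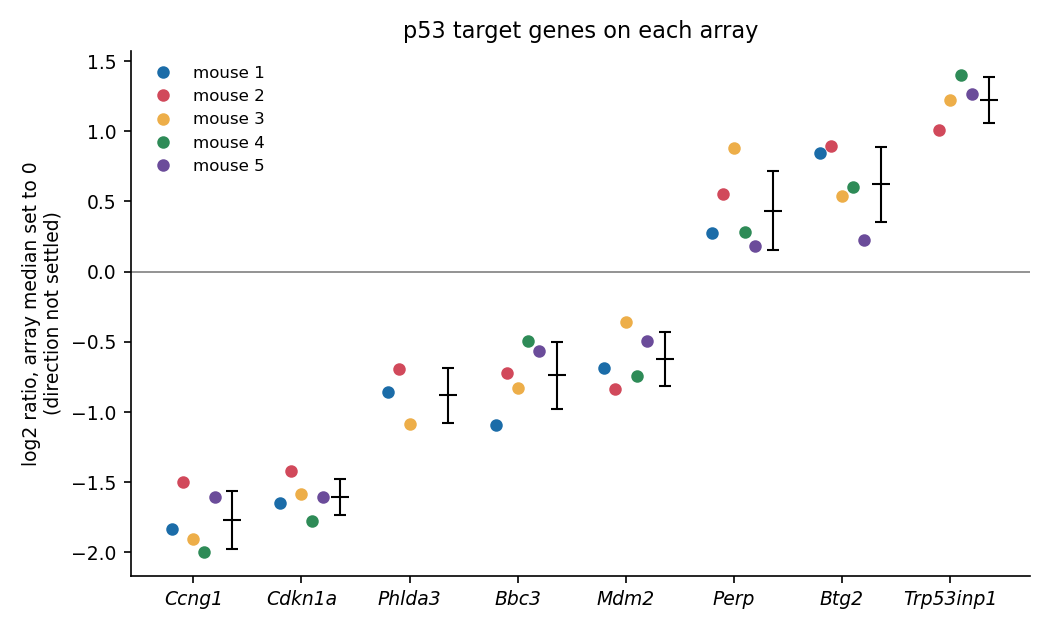
Log2 ratio (vertical axis, array median set to 0) of the 8 p53 target genes that had a feature with values, 1 point per mouse, with the mean and SD over the arrays as a bar to the right of each gene. Ccng1 and Cdkn1a sit between −1.996 and −1.42, apart from Bbc3 and Mdm2, and Trp53inp1 sits above 1.00 on its 4 arrays.

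Cdkn1a encodes p21, the inhibitor of cyclin-dependent kinases through which p53 arrests the cell cycle. Its log2 ratio was −1.65, −1.42, −1.59, −1.78 and −1.60 in mice 1 to 5. These values lay close together, with mouse 4 farthest from 0 and mouse 2 nearest. The mean was −1.61 ± 0.13 (SD, n = 5 mice), a 3.05-fold difference with a 95% interval of −1.75 to −1.46 on the log2 scale and a limma adjusted p of 1.71e-05. Only 0.655% of all tested genes had a mean as far below 0. The SD between mice was slightly under the median SD of 0.16 over all tested genes.

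Ccng1 encodes cyclin G1, a cyclin that recruits a phosphatase to Mdm2 and is among the genes most readily activated by p53. The log2 ratio of Ccng1 was −1.83, −1.502, −1.91, −1.996 and −1.60 in mice 1 to 5. As with Cdkn1a, mouse 4 was farthest from 0 and mouse 2 nearest, and in mouse 5 the values of both genes were the same. The mean was −1.77 ± 0.21 (SD, n = 5), a 3.40-fold difference with a 95% interval of −1.96 to −1.57 and a limma adjusted p of 2.41e-05. A mean as far below 0 was found for 0.446% of all tested genes. Ccng1 was the lowest of the 7 in mice 1 to 4 and shared that place with Cdkn1a in mouse 5.

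Promoter sequences of these genes are shown because Cdkn1a and Ccng1, the members farthest below 0, hold close copies of the paired p53 element near an annotated start site. The sequences come from a RefSeq table of the GRCm38.p6 build with 250 bases before and 50 after each annotated start. It held 9 windows for 6 of the 8 genes with a feature. Trp53inp1 and Perp had no window, so Btg2 was the only member above 0 that was searched. Each window was searched for the p53 consensus, which reads the same on both strands and is a pair of 10-base half-sites, allowing a gap of up to 3 bases and up to 3 differences from the consensus in the 20 bases, with C fixed at position 4 and G at position 7 of each half-site. Capitals mark the half-sites of the pair, and only bases before the start are printed. The Cdkn1a window held 2 half-sites without a difference, and the one outside the pair is left in lower case.
Cdkn1a, chr17:29090729-29090978, plus strand: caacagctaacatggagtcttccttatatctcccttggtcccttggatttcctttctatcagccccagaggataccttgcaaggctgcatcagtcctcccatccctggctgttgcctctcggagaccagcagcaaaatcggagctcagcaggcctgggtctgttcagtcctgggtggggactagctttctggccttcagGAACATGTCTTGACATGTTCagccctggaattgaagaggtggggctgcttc
Ccng1, chr11:40755287-40755536, minus strand: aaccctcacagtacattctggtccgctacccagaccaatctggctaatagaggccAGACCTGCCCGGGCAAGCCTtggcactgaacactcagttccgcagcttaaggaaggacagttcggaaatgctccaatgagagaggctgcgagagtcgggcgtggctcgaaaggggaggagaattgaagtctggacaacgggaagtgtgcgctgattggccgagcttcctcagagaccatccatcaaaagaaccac

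Each of these 2 pairs has no gap and 1 difference from the consensus. A pair with at most 1 difference was found in 72 of 32851 promoter windows of the table, or 0.219%. The Cdkn1a pair runs from 51 to 32 bases before the upstream one of 2 annotated start sites, and its last base lies 2822 bases before the downstream one. The window of that downstream start held no match. The Ccng1 pair runs from 195 to 176 bases before its start. A match describes the letters and does not show binding in these lungs, which was not measured.

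Bbc3 encodes PUMA, a protein that binds the anti-apoptotic Bcl2 proteins and so frees Bax and Bak1 to permeabilise mitochondria. In mice 1 to 5 the log2 ratio was −1.09, −0.72, −0.83, −0.49 and −0.56. Here mouse 1 was farthest from 0 and mouse 4 nearest, so the order of the mice was not that of Cdkn1a. The mean was −0.74 ± 0.24 (SD, n = 5), a 1.67-fold difference with a limma adjusted p of 0.000762. A mean as far below 0 was found for 4.89% of all tested genes.

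Mdm2 encodes the ubiquitin ligase that marks p53 for destruction, and its transcript is itself raised by p53. Its log2 ratio was −0.69, −0.84, −0.36, −0.74 and −0.497 in mice 1 to 5. Mouse 2 was farthest from 0 and mouse 3 nearest. The mean was −0.62 ± 0.19 (SD, n = 5), a 1.54-fold difference with a limma adjusted p of 0.000834. All 5 values of Bbc3 and all 5 of Mdm2 were nearer to 0 than any value of Cdkn1a or Ccng1.

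The promoter stretches of Bbc3 and Mdm2 are shown beside the closer copies in Cdkn1a and Ccng1. Sequence more than 250 bases before or 50 bases after a start was not searched. A gene whose windows held no pair may therefore hold one elsewhere. The first 2 of 3 annotated Bbc3 start sites have a pair with 3 differences each, the first without a gap and the second with a gap of 2 bases. The Mdm2 window held no pair but 1 half-site without a difference, which is the stretch in capitals.
Bbc3, first start, chr7:16309466-16309525, plus strand: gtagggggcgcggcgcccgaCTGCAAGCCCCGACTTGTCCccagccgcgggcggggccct
Bbc3, second start, chr7:16310136-16310197, plus strand: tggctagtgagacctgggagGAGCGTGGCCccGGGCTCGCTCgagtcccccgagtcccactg
Mdm2, chr10:117710915-117710964, minus strand: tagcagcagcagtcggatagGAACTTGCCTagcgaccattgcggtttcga

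The Bbc3 pairs lie from 97 to 78 and from 105 to 84 bases before their starts. A pair with at most 3 differences was found in 1892 of the 32851 windows, or 5.76%, and a half-site without a difference in 8.36%. Among the 9 windows of the p53 targets, 4 held a pair, in Cdkn1a, Ccng1 and Bbc3. No window existed for Trp53inp1 or Perp, and how a pair relates to the side or size of a ratio was not tested. The windows of Btg2 and Phlda3 held neither a pair nor a half-site without a difference. Among 35 other p53 targets with values and a promoter window, 3 held a pair, Aen, Mgmt and Tnfrsf18, which is 4 of 55 windows or 7.27%. Their mean log2 ratios were −0.051, −0.020 and −0.29, and of these only Tnfrsf18 passed the threshold (limma adjusted p = 0.0111).

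Trp53inp1 encodes a stress protein that promotes phosphorylation of p53 and takes part in autophagy. It had no value in mouse 1, and its log2 ratio was 1.01, 1.23, 1.404 and 1.27 in mice 2 to 5. Every one of these lay farther above 0 than any value of Btg2 or Perp. The mean was 1.23 ± 0.16 (SD, n = 4), a 2.34-fold difference with a 95% interval of 1.03 to 1.42 and a limma adjusted p of 0.000122. A mean as far above 0 was found for 1.82% of all tested genes.

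Btg2 encodes an antiproliferative protein that speeds removal of the poly(A) tail of messenger RNA, and it is also an immediate early gene. Mice 1 to 5 had log2 ratios of 0.85, 0.89, 0.54, 0.61 and 0.23. Mouse 5 stood nearest to 0, and mice 1 and 2 farthest. The mean was 0.62 ± 0.27 (SD, n = 5), a 1.54-fold difference with a limma adjusted p of 0.00237.

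Perp encodes a membrane protein of desmosomes that is activated by p53 and, in stratified epithelia, by p63. Its log2 ratio was 0.28, 0.55, 0.88, 0.28 and 0.18 in mice 1 to 5, with mouse 3 highest. The mean of 0.44 ± 0.28 (SD, n = 5), a 1.35-fold difference, had a limma adjusted p of 0.0128 and the widest spread of the 7. A mean as far above 0 was found for 13.9% of all tested genes. Its call was lost when limma was asked for more than a 1.2-fold difference (adjusted p = 0.263), and with an unmoderated one-sample test (adjusted p = 0.0623). The other 6 kept theirs in both settings, 4 below 0 and 2 above. Of all tested genes 18.3% passed the 1.2-fold setting, 8.04% below 0 and 10.3% above, and 38.3% passed the unmoderated test, 18.3% below 0 and 20.1% above.

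Phlda3, a small protein that competes with the kinase Akt for membrane lipids, was just outside the rule. Its log2 ratio was −0.86, −0.695 and −1.09 in mice 1 to 3, with no value in mice 4 and 5. All 3 values lay below 0, in the range of Bbc3. Trp53inp1, on 4 arrays, was the member just inside the rule.

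The likeness of 2 members was measured as the root mean square difference of their log2 ratios over the arrays both had. Cdkn1a and Ccng1 were the nearest pair, at 0.195 over 5 arrays. Ccng1 and Trp53inp1 were the farthest, at 3.00 over 4 arrays. The values within the nearest pair differed by about the SD of Ccng1 between mice.

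**Figure D2:**
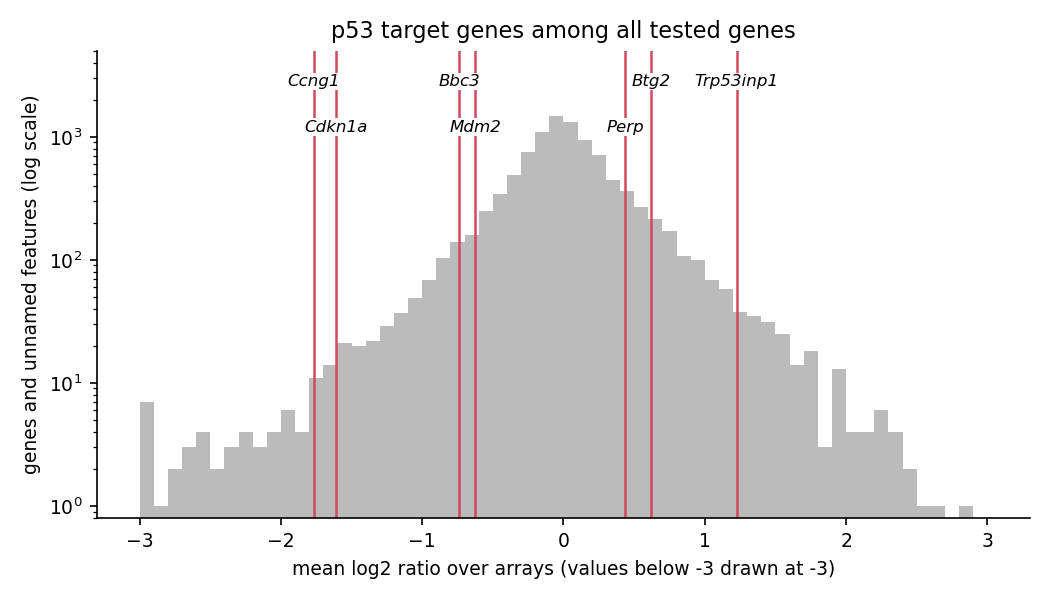
Distribution of the mean log2 ratio (horizontal axis) of all 10081 genes and unnamed features, with their number on a log scale, and a line at each of the 7 measured p53 targets. Ccng1 and Cdkn1a stand in the lower tail, where under 1% of genes lie, and Perp at 0.44 is inside the bulk.

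The rank of each gene within an array does not depend on the log base. Cdkn1a stood at percentile 1.24, 1.03, 0.819, 0.532 and 0.985 of the tested genes with a value in mice 1 to 5. Ccng1 stood at percentile 0.863, 0.897, 0.497, 0.375 and 0.985. Trp53inp1 stood between percentile 96.4 and 98.4 on its 4 arrays. Mdm2 ranged more widely, from percentile 3.49 in mouse 2 to 16.5 in mouse 3, and Btg2 from 74.8 in mouse 5 to 95.2 in mouse 2. Bbc3 lay between percentile 3.84 and 10.4, and Perp between 70.8 and 94.2.

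The test takes the pool as exact, so a chance departure of the pool would shift every array alike. With the pool counted as 1 control mouse that varies like the bleomycin mice, Cdkn1a, Ccng1 and Trp53inp1 still passed (limma adjusted p = 0.00761, 0.0106 and 0.0215). Bbc3, Mdm2, Btg2 and Perp did not (limma adjusted p = 0.117, 0.124, 0.207 and 0.388). In that setting 2 of the 7 passed below 0 and 1 above, where 5.09% of all tested genes passed, 2.11% below 0 and 2.98% above. The 95% interval of the Cdkn1a mean then ran from −1.96 to −1.25 and that of the Trp53inp1 mean from 0.80 to 1.66.

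**Figure D3:**
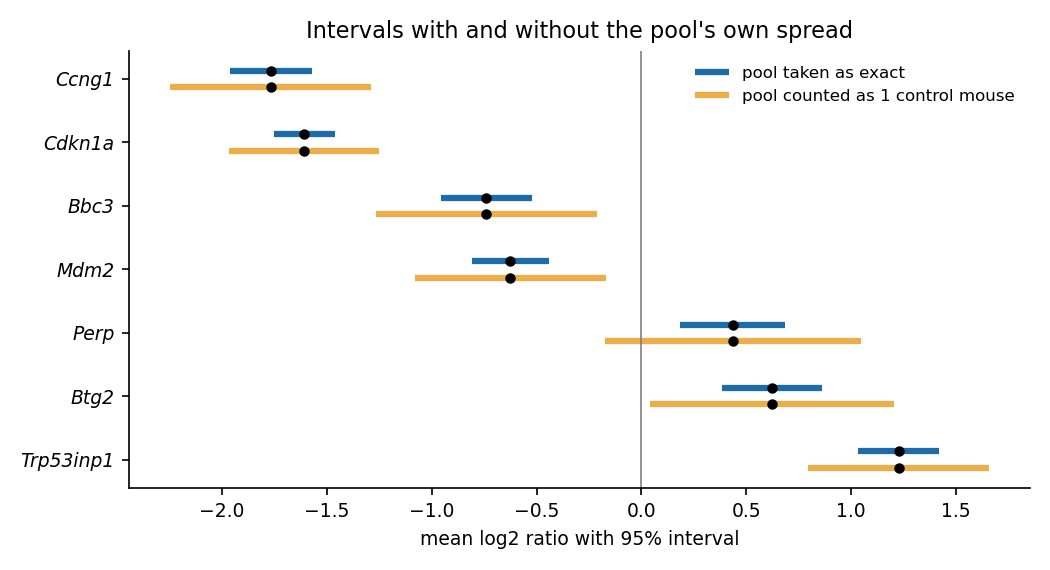
Mean log2 ratio (points) of the 7 measured p53 targets with its 95% interval from limma (horizontal axis), with the pool taken as exact (blue) and with the pool counted as 1 control mouse (yellow). The wider interval of Perp, from −0.18 to 1.05, includes 0. Intervals are for single genes, and the calls above are adjusted over all genes.

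Regulators of p53 were measured for 20 of 37 listed genes. Of these 4 passed below 0, 7 passed above 0 and 9 did not pass, with a median of 0.0765 against −0.0066 over all tested genes. That is close to the 49.6% of all tested genes that passed, 23.9% below 0 and 25.8% above. Mdm4, the relative of Mdm2 that binds and masks p53, stood at 0.58 ± 0.12 (SD, n = 5; limma adjusted p = 0.000358), on the other side of 0 from Mdm2. The deacetylase Sirt1, which acts on p53, stood at 1.71 ± 0.24, and Cop1, a ubiquitin ligase for p53, at 1.29 ± 0.16. The histone H2ax, which is phosphorylated at DNA breaks, stood at −1.12 ± 0.12, the ribosomal protein Rpl11, which can bind Mdm2, at −0.38 ± 0.20, and Cdkn2a, whose locus encodes the Mdm2 antagonist Arf, at −0.29 ± 0.14. The damage kinases Atm and Chek2 averaged −0.085 ± 0.24 and 0.040 ± 0.11 and did not pass (limma adjusted p = 0.467 and 0.636). Trp53 itself, Chek1 and Ppm1d had no tested feature.

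Further genes known as p53 targets were measured for 42 of 70 listed. Here 11 passed below 0, 12 passed above 0 and 19 did not pass, with a median of 0.0107. Of all tested genes 49.6% passed, 23.9% below 0 and 25.8% above, so these counts are close to the background. Farthest below 0 were the matrix proteoglycan Vcan at −2.52 ± 0.21, the adenylate kinase Ak1 at −1.28 ± 0.29 and Sfn, a 14-3-3 protein that blocks entry into mitosis, at −1.26 ± 0.30 (SD, n = 5 each). The Vcan value depended on the filter. With features on at least 3 arrays, which brought in a further Vcan feature, its mean was −1.85 (limma adjusted p = 0.000962). Farthest above 0 were the phosphatase Dusp1, also an immediate early gene, at 2.08 ± 0.39, the LIM protein Crip2 at 1.02 ± 0.50 and the growth factor carrier Igfbp3 at 0.68 ± 0.25. Gadd45a, a growth arrest and DNA repair gene, stood at 0.503 ± 0.26 (limma adjusted p = 0.00511), on the opposite side from Cdkn1a. Pmaip1, or Noxa, a partner of Bbc3 in cell death, averaged 0.15 ± 0.12 and did not pass (limma adjusted p = 0.071), although it did without mouse 3 (limma adjusted p = 0.0419). With the pool counted as 1 control mouse, 4 passed below 0 and 1 above, where 2.11% and 2.98% of all tested genes did.

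**Figure D4:**
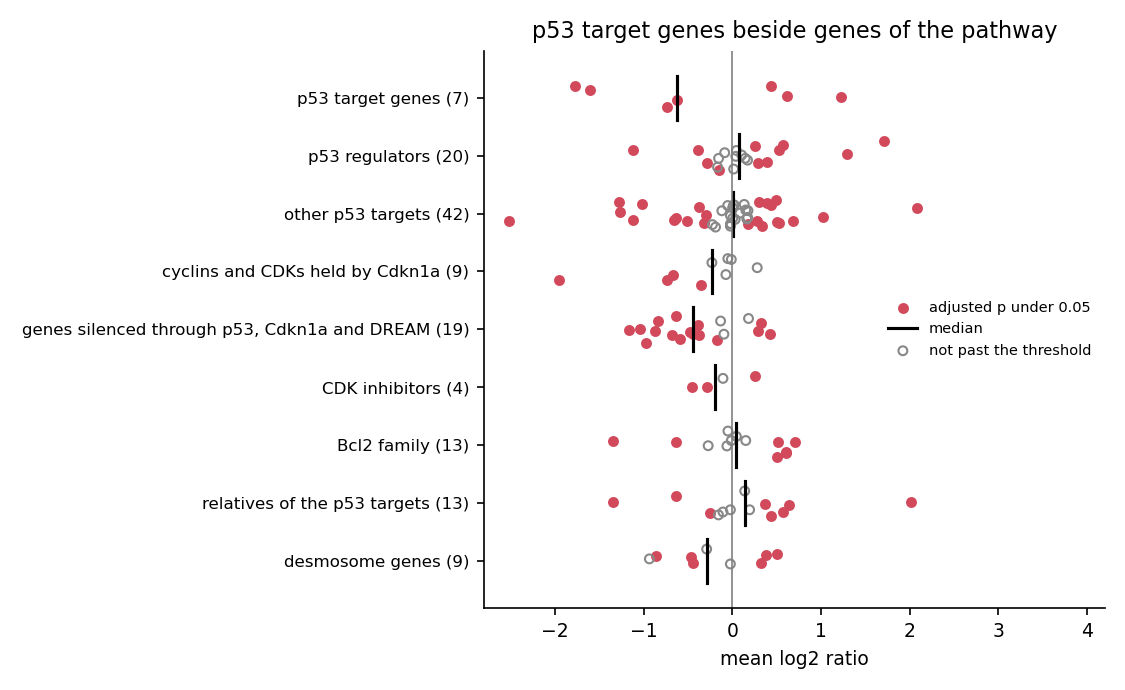
Mean log2 ratio (horizontal axis) of each measured gene in the p53 targets and 8 related lists, with the number measured in brackets, filled where limma's adjusted p was under 0.05 and open otherwise, and the median as a black line. Medians of the 8 lists lie between −0.44 and 0.14, nearer to 0 than the −0.62 of the 7 p53 targets. That −0.62 is the mean of Mdm2. With 4 targets below 0 and 3 above, it does not describe a common shift of the 7.

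The proteins that Cdkn1a binds were measured for 9 of 12 listed cyclins, kinases and the replication clamp. By limma 4 of these passed below 0, 0 passed above 0 and 5 did not pass, with a median of −0.23. At an unadjusted p under 0.05 there was 1 above 0, Cdk4, but the share of all tested genes at that level was not counted. Over all tested genes 23.9% passed the adjusted threshold below 0 and 25.8% above. The kinase Cdk1 stood at −1.95 ± 0.25, the S phase cyclin Ccna2 at −0.73 ± 0.39 and the G1 cyclin Ccnd1 at −0.66 ± 0.12 on 4 arrays. Cdk2, Cdk4 and Pcna did not pass, at −0.0496 ± 0.19, 0.28 ± 0.27 and −0.23 ± 0.34 (limma adjusted p = 0.614, 0.0517 and 0.162). Cdk4 passed above 0 without mouse 1, at a mean of 0.39 (limma adjusted p = 0.00408). Genes that p53 is known to silence through Cdkn1a and the DREAM repressor complex were measured for 19 of 32 listed. Of these 13 passed below 0, 3 passed above 0 and 3 did not pass, with a median of −0.44, beside the same 23.9% below 0 and 25.8% above over all tested genes. The centromere histone Cenpa stood at −1.16 ± 0.37, the checkpoint kinase Bub1b at −1.04 ± 0.21 and the mitotic kinase Aurkb at −0.98 ± 0.44, against the spindle checkpoint kinase Ttk at 0.42 ± 0.16, the mitotic kinase Plk1 at 0.32 ± 0.20 and the transcription factor E2f1 at 0.29 ± 0.08. Cdkn1a and most passing genes of this cell cycle list lay on the same side of 0. Once the pool was given the spread of a mouse, 2 of the 19 passed, both below 0, where 5.09% of all tested genes passed and 2.11% did so below 0.

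Other inhibitors of cyclin-dependent kinases lay nearer to 0 than Cdkn1a. Of 4 measured out of 7 listed, Cdkn2d at −0.45 ± 0.25 and Cdkn2a passed below 0, and Cdkn2c at 0.26 ± 0.15 passed above, where 49.6% of all tested genes passed on either side. The median of the 4 was −0.20. The call of Cdkn2c was lost without mouse 1 or mouse 3 (limma adjusted p = 0.0504 and 0.0602).

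Relatives and partners of Bbc3 and Bax in the Bcl2 family were measured for 13 of 21 listed. Here 2 passed below 0, 5 passed above 0 and 6 did not pass, with a median of 0.047. That is close to the 49.6% of all tested genes that passed. The effectors Bok and Bak1, which like Bax permeabilise membranes, stood below 0 at −1.35 ± 0.30 and −0.64 ± 0.27. The survival proteins Mcl1 and Bcl2l2 stood above 0 at 0.71 ± 0.28 and 0.604 ± 0.33, and the death activator Hrk at 0.603 ± 0.14. Bcl2 itself averaged −0.0603 ± 0.17 on 4 arrays and did not pass (limma adjusted p = 0.557). With the pool counted as 1 control mouse, 1 passed, Bok, where 5.09% of all tested genes did.

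Close relatives of the p53 targets that are mostly not known to answer to p53 lay on both sides of 0. This list overlaps those above and is not a separate comparison. Sesn2, Sesn3 and Bak1 were also counted among the further p53 targets and Mdm4 among the regulators. Cdkn1c was also counted among the inhibitors, and Bak1 and Bok in the Bcl2 family. Of 13 measured out of 17 listed, 3 passed below 0, 5 above 0 and 5 did not pass, with a median of 0.14, where 49.6% of all tested genes passed, 23.9% below 0 and 25.8% above. Cyclin I, Ccni, which belongs to the family of cyclin G1, stood at 2.01 ± 0.51 (SD, n = 5; limma adjusted p = 0.00019), far from the −1.77 of Ccng1. Btg1, the nearest relative of Btg2, averaged 0.14 ± 0.28 and did not pass (limma adjusted p = 0.287), although it did without mouse 1, at a mean of 0.26 (limma adjusted p = 0.0197). Tob2, of the same family, stood at 0.64 ± 0.45. The sestrin Sesn3 stood at 0.44 ± 0.26, while Sesn2 averaged −0.0206 ± 0.19 (limma adjusted p = 0.842). Phlda2 stood at −0.25 ± 0.16, nearer to 0 than the 3 values of Phlda3.

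Desmosome genes, the structural partners of Perp, were measured for 9 of 16 listed. Of these 3 passed below 0, 3 passed above 0 and 3 did not pass, with a median of −0.29, where 49.6% of all tested genes passed. The plakophilins Pkp2, Pkp4 and Pkp3 stood above 0 with Perp, at 0.51 ± 0.17, 0.38 ± 0.18 and 0.32 ± 0.22. Pkp2 is the mean of 2 features, both above 0. The plakophilin Pkp1 stood at −0.86 ± 0.77 on 4 arrays, the keratin Krt14 at −0.47 ± 0.34 and the desmocollin Dsc2 at −0.44 ± 0.12 on 4 arrays. The call of Pkp1 was lost without mouse 2 or mouse 5 (limma adjusted p = 0.134 and 0.145), that of Krt14 without mouse 5 (limma adjusted p = 0.0522) and that of Pkp3 without mouse 3 (limma adjusted p = 0.0538).

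Over the whole series, arrays held values for 11350 to 12083 of 17280 features, and correlations between arrays across genes ran from 0.732 to 0.857. Scanner intensities were not used here, and the precision is limited by the number of arrays. Of 15 lung epithelial markers 12 were measured, which as ratios give no level in either channel. Markers of several cell types passed the threshold beside the p53 targets, and their counts stand beside 23.9% of all tested genes below 0 and 25.8% above. Of 8 measured macrophage markers 6 passed below 0 and 2 above, with a median between −1.12 and −0.25 by mouse. Of 5 endothelial markers all 5 passed above 0, as did 4 of 4 cardiac muscle markers. Lung epithelial markers had 1 below and 5 above 0, fibroblast markers 2 below and 2 above, lymphocyte markers 1 of 6 below and stratified epithelium markers 4 of 7 below and 1 above. Of 8 skeletal muscle markers 6 passed below 0, and their median was −4.16, −3.59 and −3.68 in mice 1, 2 and 5 but −0.13 and −0.48 in mice 3 and 4. Cdkn1a stood at −1.65, −1.42 and −1.60 in the former mice and −1.59 and −1.78 in the latter. With the pool counted as 1 control mouse, 2 endothelial, 1 cardiac muscle and 1 lung epithelial marker passed above 0. In that setting 1 macrophage and 1 stratified epithelium marker passed below 0, and fibroblast markers had 1 below and 2 above. Skeletal muscle and lymphocyte markers had 0, where 2.11% of all tested genes passed below 0 and 2.98% above. The part of the other cell types in the values of the p53 targets was not tested.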

How the data were processed

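The authors deposited 1 table with a log ratio, read here as log2, per feature and array for 5 bleomycin-treated mice against 1 control pool. Its log base, scaling and direction are not stated, and its columns are already centred near 0. Dye assignment and normalization were not found in the labels. Each array was centred on its median, features with values on at least 4 arrays were kept (10702), and features of 1 symbol were averaged. Symbols came from the platform annotation, updated with a RefSeq table of GRCm38.p6. Each of the 8 p53 targets with values had 1 feature.

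An intercept-only model in limma 3.58.1 (R 4.3.3; empirical Bayes, two-sided, Benjamini-Hochberg over 10081) gave each mean and its adjusted p. Exact sign flips cannot go below p = 0.0625 with 5 arrays or p = 0.125 with 4. Dye bias of single genes was not balanced by swapped dyes, as far as the labels tell, and the spread between control mice is left out. The members, lists and alternatives were chosen with earlier results of these data known, and the motif search after seeing the promoter table. Named genes are the p53 targets, up to 3 genes farthest from 0 on each side of each list that passed with all measured arrays on 1 side, and fixed regulators and relatives, of which 8 had no tested feature. Alternatives were no centring, scaled arrays, features on at least 3 or all 5 arrays, 1 feature per gene, the pool as 1 control mouse, an unmoderated test, a minimum of 1.2-fold, natural logarithms and leaving out each mouse.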

Additional observations from a re-analysis of the deposited data

Results flagged for a closer look

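Among 55 genes examined, 3 had 1 mouse far from the other 4, by a rule set at the 95% level of Dixon's test, at which about 1 in 20 such groups is marked by chance. Rpl11 stood at −0.044 in mouse 3, where the nearest other value was −0.39. Phlda2, a relative of Phlda3, stood at −0.53 in mouse 4 against −0.23 for the nearest other mouse. The plakophilin Pkp4 stood at 0.063 in mouse 4 against 0.395 for the nearest other mouse. None of the 7 measured p53 targets was marked in this way.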

How the results depend on the processing

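Every mean of the 7 measured p53 targets kept its side of 0 in all alternatives run. For most alternatives this was fixed in advance. All measured arrays of each gene lay on 1 side of 0, so leaving out a mouse or scaling an array could not change the side. The pool setting, the unmoderated test, the minimum of 1.2-fold, the filters and 1 feature per gene leave these means unchanged. Only no centring could have moved a mean across 0. No centring, scaled arrays, other filters on missing values and 1 feature per gene left each call as it was, except that Trp53inp1 had no value with features on all 5 arrays. Leaving out 1 mouse kept all 7 calls, with means from −1.65 to −1.57 for Cdkn1a and 0.32 to 0.499 for Perp, whose adjusted p by limma was at most 0.0455. With the pool as 1 control mouse, Bbc3 at −0.74, Mdm2 at −0.62, Btg2 at 0.62 and Perp at 0.44 lost their calls, and Perp also with a minimum of 1.2-fold and with the unmoderated test. The pool setting left 2 targets below 0 and 1 above. Of all 5002 genes past the threshold (2406 below 0, 2596 above), 513 (213 and 300) passed with the pool as 1 control mouse and 1847 (811 and 1036) with a minimum of 1.2-fold. In the same 2 settings limma passed 3 and 5 against 11 regulators, 5 and 11 against 23 other targets, 2 and 6 against 16 genes silenced through Cdkn1a, 0 and 0 against 3 inhibitors, 1 and 4 against 7 Bcl2 relatives, 2 and 4 against 8 paralogs and 0 and 1 against 6 desmosome genes, and 1 of 4 Cdkn1a partners passed with the pool as 1 control mouse. At an unadjusted p under 0.05 by limma, 0 and 1 inhibitors passed in these settings, and 2 desmosome genes with the pool as 1 control mouse. The share of all tested genes at that unadjusted level was not counted, so these counts have no background beside them. The unmoderated test left 10 of 19 silenced genes, 5 of 13 paralogs and 3 of 9 desmosome genes. Of all tested genes 38.3% passed that test, and the paralog and desmosome counts are close to that share. Of genes that did not pass, Sesn2 changed sign between −0.0805 and 0.0473, Bcl2 between −0.12 and 0.00667 and Cdk2 between −0.097 and 0.0185 when 1 mouse was left out. Cdk4 passed with no centring, scaled arrays or features on all 5 arrays (limma adjusted p = 0.0451, 0.0394 and 0.0483), and Pkp1 lost its call with scaled arrays (0.0561). The unmoderated test also ended the calls of Plk1, Cdkn2c, Phlda2, Tob2, Pkp1, Krt14 and Pkp3, at adjusted p from 0.0528 to 0.172. If the values are natural logarithms, the Cdkn1a difference is 4.99-fold and that of Ccng1 5.86-fold. No paired analysis was possible because there is 1 group, measured against 1 pool.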
